A study of Mus musculus with 2 samples.

Results

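Cytochrome P450 family 2 (Cyp2) was followed in livers of male mice that carried either the control virus Ad-Ctrl or Ad-378, an adenovirus labelled for overexpression of the microRNA miR-378. Members were the genes on the array whose symbol starts with Cyp2 and a letter, with pseudogenes left out. They numbered 44 of the 20652 symbols with a probe, and 40 of them passed the scanner's background call on both arrays, as did 14288 genes in all. The rule reads gene symbols and no signal, and the family was picked with earlier results of these data known. The label of the family is the gene symbol itself, so it was not checked against markers.

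RNA of 5 livers was pooled for each virus and put on 1 array. The mice were 8 weeks old when the virus was given through a tail vein, at 1000000000 plaque-forming units in both groups. Livers were taken 2 weeks later per the protocols given for both groups, whereas the description of the Ad-378 sample gives 3 weeks. Both groups carry an adenovirus, and the labels give neither the strain nor an uninjected group. The arrays held 43020 gene spots, and the share called well above background was 63.1% for Ad-Ctrl and 65.7% for Ad-378, with 0 saturated. Without replicate arrays no test was possible, so every difference describes these 2 pools.

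Cyp2 enzymes are heme proteins of the endoplasmic reticulum that take electrons from P450 oxidoreductase and cytochrome b5. They oxidise drugs, solvents, steroids, bile acids and fatty acids, and in the mouse most of them lie in clusters of closely related genes. Liver Cyp2b and Cyp2c genes are known to be induced through the nuclear receptors CAR (Nr1i3) and PXR (Nr1i2), several members differ between the sexes under growth hormone, and Cyp2e1 and some Cyp2c genes are restricted to hepatocytes near the central vein.

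On the values as reported, the family as a whole was about level between the pools, with a few members apart from 0 on either side. Values are processed signals, the background-subtracted brightness of a spot. A difference is log2 Ad-378 minus Ad-Ctrl after each signal was divided by the 75th percentile of its array, 800 in Ad-Ctrl and 695 in Ad-378. The median difference of the 40 members was 0.01, against 0.04 for all 14288 genes, and the SD over members was 0.54, against 0.58 over all genes. Past 2-fold in either direction were 4 of the 40, against 7.35% of all genes. Of these, 3 were at least 2-fold lower in the Ad-378 pool (Cyp2c55, Cyp2a22 and Cyp2b9), where 4.51% of all genes were. Cyp2u1 alone was at least 2-fold higher, where 2.83% of all genes were. At 1.5-fold, 6 members were lower and 2 higher, against 12% and 8.79% of all genes. These shares are of the same order as in the background, so the counts set nothing apart about the family.

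The scanner error of a difference, from the deposited error of both spots, was 0.20 log2 units for the median member. The 95% range of this error lay below 0 for 6 members and above 0 for 6, and included 0 for 28, whereas it left out 0 for 33.2% of all genes. It covers measurement on the array and not the spread between mice or pools. For bright members this error was 0.20 whatever their signal, so its range worked much like a fixed cut. The measured SD of the difference over spots had a median of 0.06 for the 279 probes printed in 8 or more spots, and is likewise technical. Members with a difference above and below 0 numbered 20 and 20, where 53.9% of all genes were above 0. Under quantile or loess normalization the split was 13 above and 27 below. The family median was -0.09 under quantile and -0.11 under loess normalization, against -0.0049 and -0.03 for all genes. The share of all genes above 0 was taken for the values as reported only.

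**Figure D1:**
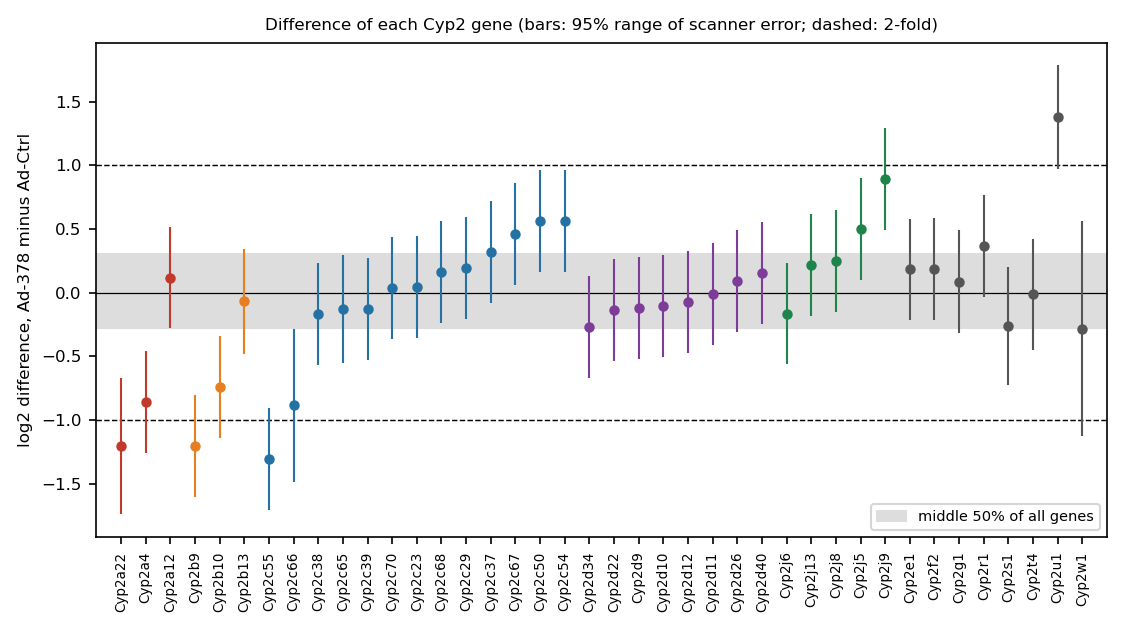
Log2 difference (Ad-378 minus Ad-Ctrl) of each of the 40 measured Cyp2 genes, coloured by subfamily (a red, b orange, c blue, d purple, j green, others grey). Bars are the 95% range of the scanner error, dashed lines mark 2-fold and the grey band holds the middle 50% of all 14288 genes. Cyp2c55, Cyp2a22 and Cyp2b9 lie below the lower dashed line and Cyp2u1 above the upper one.

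The Cyp2b genes include the classical phenobarbital-inducible P450s. Cyp2b10, the standard marker of CAR activation, read 52284 for Ad-Ctrl and 27128 for Ad-378, a difference of -0.74 with a scanner error of 0.20. Cyp2b9, a female-biased relative, had 2980 and 1124, a difference of -1.20 with the same error. Both were lower in the Ad-378 pool by more than the scanner error range. Cyp2b13, also female-biased, was dim at 144 and 119 and differed by -0.07, within its error of 0.21. The median of the 3 measured Cyp2b genes was -0.74. Cyp2b19 was not well above background on either array. Cyp2b23 was above it in the Ad-378 pool only, with signals of 13.9 for Ad-Ctrl and 14.5 for Ad-378, and the scanner error range includes a difference of 0.

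The promoters of Cyp2b9 and Cyp2b13 are shown because the genes are neighbours in the family's order and their promoters are near copies. Their differences (Ad-378 minus Ad-Ctrl), however, lay 1.13 log2 units apart. Over the RefSeq window (GRCm38.p6) of 250 bases before to 50 after the gene start, 298 of 300 bases were identical. The 250 bases before the start are at chr7:26173159-26173408 (plus strand) for Cyp2b9 and at chr7:26061245-26061494 (plus strand) for Cyp2b13. Capitals mark the 2 bases that differ. Cyp2b13 was printed for this likeness, after its value was seen.
Cyp2b9: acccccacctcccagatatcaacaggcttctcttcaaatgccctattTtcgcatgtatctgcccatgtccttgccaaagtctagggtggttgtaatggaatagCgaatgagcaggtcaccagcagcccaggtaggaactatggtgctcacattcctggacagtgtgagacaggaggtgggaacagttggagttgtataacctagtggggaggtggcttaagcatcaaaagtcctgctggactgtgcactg
Cyp2b13: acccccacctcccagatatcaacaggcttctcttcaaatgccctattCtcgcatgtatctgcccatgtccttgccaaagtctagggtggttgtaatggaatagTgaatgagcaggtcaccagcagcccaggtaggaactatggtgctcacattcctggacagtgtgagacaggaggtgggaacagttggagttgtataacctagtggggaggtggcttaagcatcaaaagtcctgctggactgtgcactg
Both hold AGGTCA, the core letters bound by nuclear receptors, at position -138 from the start. The window of Cyp2b10 shared 229 identical bases with either of them and held no AGGTCA on either strand.

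Cyp2a4 and Cyp2a22 were lower in the Ad-378 pool, and Cyp2a12 was level. Cyp2a4, a female-biased steroid hydroxylase, was measured by a pair of probes. The brighter had 33652 in Ad-Ctrl and 16097 in Ad-378, a difference of -0.86, and the other had 26997 and 11289, a difference of -1.05. Both probes gave the lower signal in the Ad-378 pool, on either side of the 2-fold line. Cyp2a5, the coumarin hydroxylase, shares 294 bases of its promoter window with Cyp2a4 and had no probe that matched its accessions. Whether the Cyp2a4 probes also read Cyp2a5 was not tested, and promoter likeness does not show it. Any signal of Cyp2a5 on these probes cannot be told apart from that of Cyp2a4. Cyp2a12 had 45417 and 42822, a difference of 0.12 that ran from -0.07 to 0.14 over the settings.

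Cyp2a22 was dim, at 55.4 in Ad-Ctrl and 20.8 in Ad-378, a difference of -1.21 with a scanner error of 0.27. This size rested on the background subtraction, since it was -0.29 after normexp background correction and -0.40 on the deposited series matrix values, which are not background-subtracted. It is shown beside Cyp2a12, the nearest promoter to it in the family, because the level gene and the lower gene share 261 identical bases of the window. The 250 bases before the start are at chr7:26939387-26939636 (minus strand) for Cyp2a22 and at chr7:27028840-27029089 (plus strand) for Cyp2a12, both in GRCm38.p6, and capitals mark aligned bases that differ.
Cyp2a22: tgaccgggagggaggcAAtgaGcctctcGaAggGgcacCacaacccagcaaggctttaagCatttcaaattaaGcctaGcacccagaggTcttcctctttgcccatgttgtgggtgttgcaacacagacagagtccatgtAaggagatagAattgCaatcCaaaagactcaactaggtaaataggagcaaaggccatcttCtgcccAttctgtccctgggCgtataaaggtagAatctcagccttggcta
Cyp2a12: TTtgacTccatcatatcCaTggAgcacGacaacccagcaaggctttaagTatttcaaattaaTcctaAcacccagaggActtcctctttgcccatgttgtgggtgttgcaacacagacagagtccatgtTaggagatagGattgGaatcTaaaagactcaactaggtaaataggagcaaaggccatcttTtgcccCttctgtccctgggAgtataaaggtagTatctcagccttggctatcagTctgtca
Bases without a partner in the alignment are in lower case. Neither window held any of the motifs searched.

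The Cyp2c genes, many of them epoxygenases or hydroxylases of arachidonic acid, spread in both directions. Their 13 measured members ran from -1.31 to 0.56, with a median of 0.05. That median was -0.11 under quantile and -0.12 under loess normalization, and between -0.0072 and -0.0032 after normexp and on the series matrix values. Cyp2c55, an arachidonic acid hydroxylase that CAR and PXR are known to induce, had 1761 in Ad-Ctrl and 619 in Ad-378, a difference of -1.31 with a scanner error of 0.20. It was the lowest of all 40 members. Cyp2c66 had 51.2 and 24.1, a difference of -0.89 (error 0.31), and was as dim as Cyp2a22. It was -0.21 after normexp and -0.37 on the series matrix values. Cyp2c65 had 84.3 and 67, a difference of -0.13.

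Cyp2c54 and Cyp2c50, both epoxygenases, were the highest of the subfamily. Cyp2c54 had 32319 in Ad-Ctrl and 41413 in Ad-378 at its brightest probe, a difference of 0.56, and its other probes gave differences of 0.555 and 0.84. Cyp2c50 had 37779 and 48388, also a difference of 0.56. Cyp2c67 had 29433 and 35233, a difference of 0.46, and 0.11 at its other probe. On the values as reported, these were the Cyp2c genes whose scanner error range lay above 0. Their differences were smaller under some settings. Cyp2c54 and Cyp2c50 had 0.38 and 0.37 under loess normalization, and Cyp2c67 had 0.12 after normexp. Cyp2c37, a hydroxylase of arachidonic acid, followed with 0.32 and 0.46 at its probes, and Cyp2c68 had 0.16.

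Cyp2c29, an epoxygenase that CAR induces, was printed in 10 spots per array, which gives the technical spread directly. Its spots ran from 28941 to 33271 in Ad-Ctrl and from 29046 to 33833 in Ad-378. The signals overlapped before scaling, and the scaled difference was 0.19 with an SD of 0.07 over the 10 spots, positive in each of them. That SD is smaller than the scanner error of 0.20 and is likewise technical. The difference of Cyp2c29 was 0.02 under both quantile and loess normalization, and it kept its sign in every setting.

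Cyp2c70, the bile acid hydroxylase that makes muricholic acids in mouse liver, had 56550 in Ad-Ctrl and 50256 in Ad-378, a difference of 0.03 with an error of 0.20. Over the settings it ran from -0.16 to 0.03. Cyp2c23, an epoxygenase also named Cyp2c44, had 0.05, and Cyp2c39, a retinoic acid hydroxylase, -0.13. Cyp2c38 was the member whose probes disagreed most. Its brighter probe had 23361 and 18032, a difference of -0.17, and the dimmer one 890 and 339, a difference of -1.19. Which probe reads Cyp2c38 alone was not tested. Cyp2c40 and Cyp2c69 had no probe that matched.

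The order of the genes along their clusters, taken from RefSeq, set these values side by side. Cyp2c55, Cyp2c65 and Cyp2c66 open the Cyp2c cluster and were -1.31, -0.13 and -0.89. Next to each other further along lie Cyp2c37, Cyp2c54 and Cyp2c50, at 0.32, 0.56 and 0.56. Whether the probes of these related genes read 1 gene each was not tested, so the values may not be separate. In the cluster that holds the Cyp2a and Cyp2b genes, Cyp2b10, Cyp2b13, Cyp2b9 and Cyp2a4 follow each other, and Cyp2b13 was the one with a difference near 0. The flanking Cyp2s1, Cyp2f2 and Cyp2t4 had -0.26, 0.18 and -0.01.

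**Figure D2:**
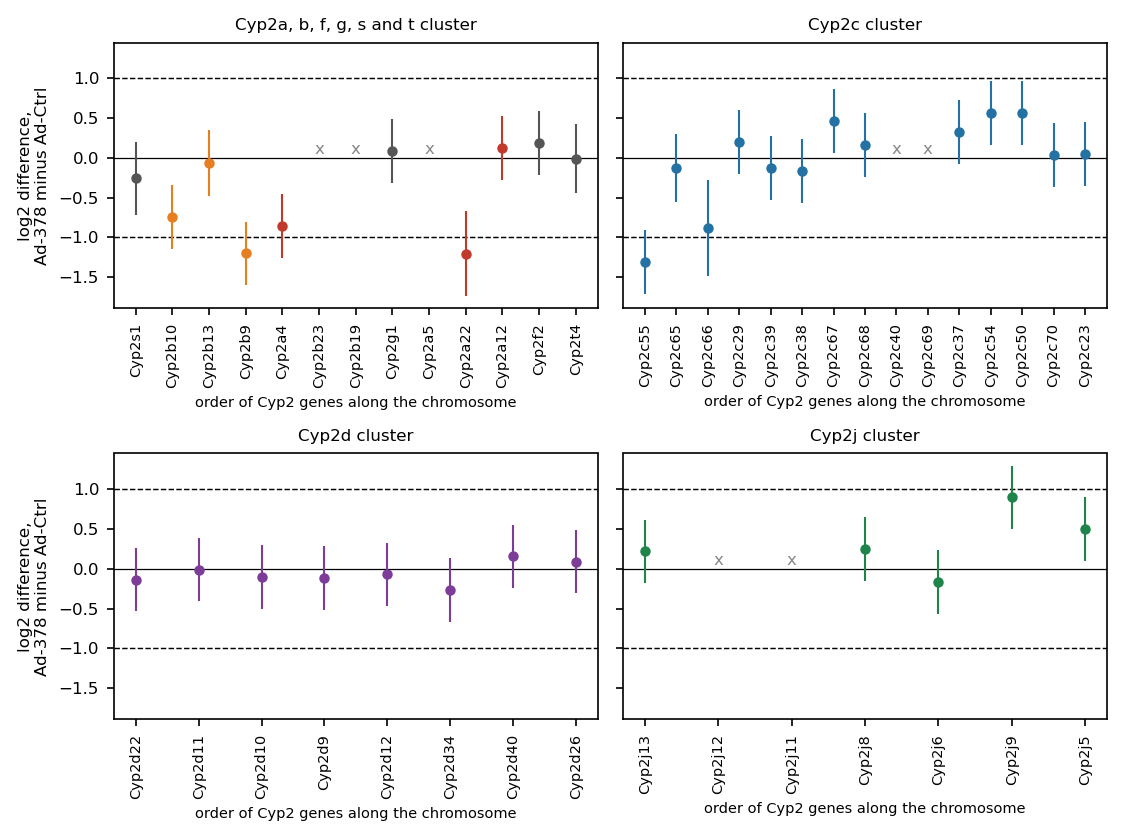
Log2 difference (Ad-378 minus Ad-Ctrl) of Cyp2 genes in their order along 4 gene clusters, with the 95% range of the scanner error as bars, dashed lines at 2-fold and x for genes not measured on both arrays. Colours are the subfamilies (a red, b orange, c blue, d purple, j green, others grey). Cyp2c55 and Cyp2c66 at one end of the Cyp2c cluster are low, and all 8 Cyp2d genes lie near 0.

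A motif of the liver factor HNF4, CAAAGTCCA, stood out by its share among promoters. It was found in 4 of the 37 members that had both a probe and a promoter entry (10.8%), and in 0.475% of all 32851 RefSeq promoter windows of that length, either strand. The 4 were Cyp2c65, Cyp2c67, Cyp2c68 and Cyp2c70, which are related genes and not independent. Their differences were -0.13, 0.46, 0.16 and 0.03, a median of 0.10, against -0.01 for the 29 measured members without it. A match is a description of letters. Cyp2c67 (chr19:39649043-39649292, minus strand) and Cyp2c70 (chr19:40187287-40187536, minus strand), the highest of the 4 and the bile acid hydroxylase, are shown with the motif in capitals (GRCm38.p6, 250 bases before the start, chosen after their values were seen).
Cyp2c67: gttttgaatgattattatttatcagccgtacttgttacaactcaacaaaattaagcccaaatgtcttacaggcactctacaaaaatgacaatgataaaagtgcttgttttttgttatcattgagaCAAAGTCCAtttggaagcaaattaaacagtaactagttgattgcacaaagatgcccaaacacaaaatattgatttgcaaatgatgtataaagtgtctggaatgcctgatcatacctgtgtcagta
Cyp2c70: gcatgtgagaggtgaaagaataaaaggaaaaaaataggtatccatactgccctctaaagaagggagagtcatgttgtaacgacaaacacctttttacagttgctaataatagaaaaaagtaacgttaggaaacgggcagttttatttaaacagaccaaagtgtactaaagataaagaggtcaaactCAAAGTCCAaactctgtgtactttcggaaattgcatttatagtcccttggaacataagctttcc
AGGTCA occurred in 12 of the 37 (32.4%), against 16.3% of all windows, and the 10 of them that were measured had a median of 0.01. The direct repeat of AGGTCA with 4 bases between was in 0 of the 37 and in 0.0152% of all windows. The STAT5-type TTCNNNGAA was in Cyp2j11 alone, which was not above background, and in 8.3% of all windows. AGGTCA is part of the direct repeat.

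The Cyp2d genes, which include relatives of the human drug-metabolising CYP2D6, were the most even subfamily. All 8 lay between -0.27 and 0.16, with a median of -0.09 and every scanner error range including 0. Cyp2d9, a male-biased steroid hydroxylase, had 44596 in Ad-Ctrl and 35643 in Ad-378, a difference of -0.12. Cyp2d34 was lowest at -0.27 and -0.14 by its probes, and Cyp2d40 highest at 0.16. Cyp2d10, Cyp2d11, Cyp2d12, Cyp2d22 and Cyp2d26 ran from -0.14 to 0.09. Several Cyp2d genes are near copies, and the promoter windows of Cyp2d9 and Cyp2d11 shared 267 identical bases. Probes may read more than 1 of the genes, which promoter likeness does not show and which was not tested.

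Cyp2j genes, epoxygenases of arachidonic acid, were higher in the Ad-378 pool in 4 of the 5 that were measured. Their median was 0.25 and lay between 0.16 and 0.29 over the settings. Cyp2j9 had 369 in Ad-Ctrl and 596 in Ad-378, a difference of 0.89 with an error of 0.20, and Cyp2j5 had 451 and 554, a difference of 0.50. Both ranges lay above 0. Cyp2j8 and Cyp2j13 had 0.25 and 0.22. Cyp2j6 was split, at -0.16 by its brighter probe (4259 and 3301) and 0.37 by the other (805 and 905). Cyp2j11 was below background on both arrays, and Cyp2j12 had no probe that matched.

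Cyp2u1, a hydroxylase of long-chain fatty acids including arachidonic acid, was the member furthest above in the Ad-378 pool. It had 117 in Ad-Ctrl and 263 in Ad-378, a difference of 1.38 (2.60-fold) with an error of 0.21. It was 1.08 after normexp and stayed past 2-fold under all 7 alternative settings. One probe measured it. Its promoter entry and that of Cyp2c54 were not in the table used.

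Apart from Cyp2u1, the measured genes that are alone in their subfamily had differences between -0.28 and 0.37. Cyp2e1, which oxidises ethanol and acetaminophen, had 115827 in Ad-Ctrl and 114109 in Ad-378 at its brighter probe, a difference of 0.18, and 83236 and 92924 at the other, a difference of 0.36. Human CYP2E1 has been described as a target of miR-378. In these pools the mouse gene was not lower at either probe on the values as reported, although its brighter probe was -0.05 under quantile and -0.04 under loess normalization. Cyp2f2, a periportal enzyme that activates naphthalene, had 99614 and 98358, a difference of 0.18, which was -0.03 at its lowest setting.

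Cyp2r1, the vitamin D hydroxylase of liver, had 1700 and 1906, a difference of 0.37, and 0.48 at its other probe. Cyp2g1, an enzyme of the olfactory mucosa, had 211 and 195, a difference of 0.09. Cyp2s1, Cyp2t4 and Cyp2w1 were dim, with signals of at most 67.5, and their differences of -0.26, -0.01 and -0.28 changed sign between settings. Cyp2ab1 was below background on both arrays.

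**Figure D3:**
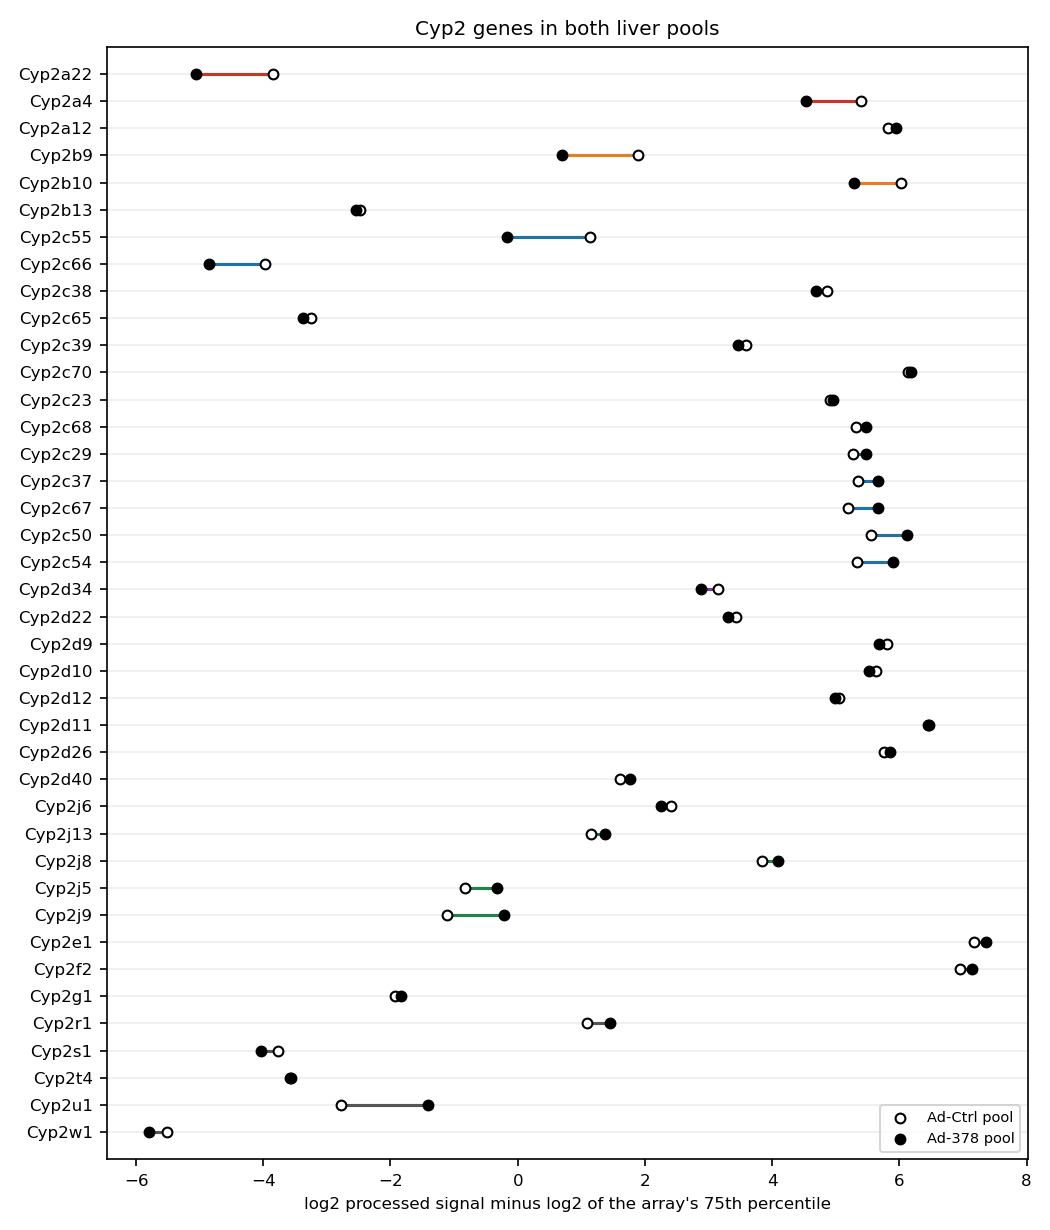
Scaled log2 signal of the 40 measured Cyp2 genes in the Ad-Ctrl pool (open points) and the Ad-378 pool (filled points), with a line joining the 2 pools coloured by subfamily (a red, b orange, c blue, d purple, j green, others grey). The horizontal distance within a gene is the difference, and positions of different genes are not comparable, since probes differ in brightness. Cyp2c55, Cyp2a22, Cyp2b9 and Cyp2u1 have the longest lines.

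Grouped by role, the members lay on different sides of 0. All 4 measured female-biased members were below 0, with Cyp2b9, Cyp2a4, Cyp2b10 and Cyp2b13 at -1.20, -0.86, -0.74 and -0.07. The listed Cyp2c40 and Cyp2c69 had no probe, and the Cyp2a4 value may include signal of Cyp2a5. The sign of Cyp2b13 turned under at least 1 setting. The male-biased Cyp2d9 was -0.12. Of 6 measured genes induced through CAR and PXR, 4 were below 0 (Cyp2c55, Cyp2b9, Cyp2a4 and Cyp2b10) and 2 above, Cyp2c29 (0.19) and Cyp2c37 (0.32). All 5 measured pericentral members were above 0, with Cyp2e1 lowest at 0.18, Cyp2c54 highest at 0.56 and a median of 0.32. However, Cyp2e1 was below 0 under quantile and loess normalization, and the listed Cyp2a5 had no probe. Probes of the related Cyp2c37, Cyp2c50 and Cyp2c54 may also read more than 1 of these genes. The periportal Cyp2f2 was also above 0, at 0.18, so this sign was not particular to the pericentral members. Of 12 arachidonic acid epoxygenases and hydroxylases, 8 were above 0 and 4 below, from Cyp2c55 at -1.31 to Cyp2u1 at 1.38. For comparison, 53.9% of all genes were above 0. These lists share members and were set from general knowledge, with earlier results of these data known.

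Several probes above background on both arrays were available for 10 members, and in 9 of these the probes had 1 sign. The exception was Cyp2j6. The gap between probes was over 1 log2 unit in Cyp2c38 alone and at most 0.36 in the 8 others besides Cyp2c38 and Cyp2j6.

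**Figure D4:**
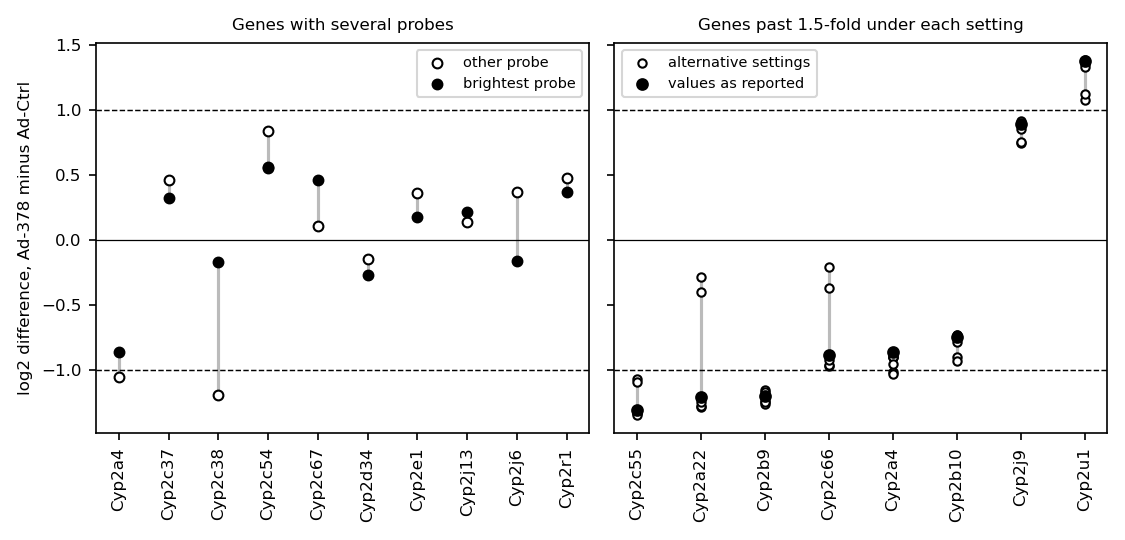
Left, the log2 difference (Ad-378 minus Ad-Ctrl) of each probe of the 10 Cyp2 genes with several probes, the brightest filled. Right, the 8 genes past 1.5-fold as reported (filled) and under 7 alternative settings (open), where Cyp2a22 and Cyp2c66 approach 0 under 2 of them and the others keep their side of 0.

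The factors that control Cyp2 genes were measured for 18 of 20 listed, and none was 2-fold apart. Their median was -0.04, with 8 above 0 and 10 below. Nr1i3 (CAR) had 2385 in Ad-Ctrl and 2626 in Ad-378, a difference of 0.34, and Nr1i2 (PXR) 2109 and 1540, a difference of -0.25. The receptor of fatty acids Ppara (0.86) and the hepatocyte factor Cebpa (0.80) were among the highest, and the aryl hydrocarbon receptor Ahr was lowest at -0.70. Hnf4a had -0.16 and Nr1h4, the bile acid receptor, 0.49. Of the growth hormone pathway, Stat5b had -0.40, Stat5a 0.31 and Bcl6, a repressor active in male liver, -0.24. Cux2, a female-biased repressor, was above background in the Ad-Ctrl pool only, and Onecut1 in neither.

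Electron and heme supply differed by less than 2-fold in all 14 listed genes, with a median of 0.24 and 10 above 0. Por, the reductase that feeds all Cyp2 enzymes, had 45992 and 39042, a difference of -0.03, and Cyb5a 0.24. Alas1, the rate-limiting enzyme of heme synthesis, was highest, with 42857 and 64628, a difference of 0.80, and the last enzyme, Fech, was lowest at -0.19.

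Among other genes of drug metabolism, 26 of 29 listed were measured and 18 were below 0, with a median of -0.31. The glutathione transferase Gstm3 had 58852 in Ad-Ctrl and 11218 in Ad-378, a difference of -2.19, and was at least 2-fold lower. Cyp3a13 had a difference of -0.91. Differences of the same sign as those of Cyp2b10 thus occurred outside the family, and no test of a shared direction was run.

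In pooled liver, fewer cells of a type and less RNA per cell cannot be told apart. All 9 measured hepatocyte markers lay between -0.16 and 0.28, and their scaled signals summed to 1070 (Ad-Ctrl) and 1160 (Ad-378), in units of the array's 75th percentile. All 8 measured Kupffer cell and macrophage markers were below 0, with a median of -0.89 and sums of 99.6 and 52.2. All 8 measured stellate cell and fibroblast markers were below 0 too, with a median of -1.35 and sums of 77.8 and 39.2. They were uneven, from -2.71 in Col3a1 to a level -0.01 in Lrat, and 5 were at least 2-fold lower. Sinusoidal endothelial markers had a median of -0.18 over 6 (sums of 49.6 and 41.5), with 5 below 0 and 1 above. Cholangiocyte markers had a median of 0.67 over 4 (3.52 and 8.14), with 3 above 0 and 1 below, from -0.36 to 1.30. The highest of them, Spp1, was also the brightest (2344 and 4998) and so weighed most in the sums. Epcam (28.6 in Ad-Ctrl and 36.5 in Ad-378) and the marker below 0 (48.1 and 32.5) were dim. Krt7 was above background in neither pool. The 5 markers of T and NK cells were split, with 3 at least 2-fold lower in the Ad-378 pool and 2 level. Those level were Cd3e and Nkg7, each at 0.02, and Nkg7 was the brightest of the list (4323 and 3798). The median of -1.14 therefore does not describe the whole list, whose sums were 8.55 and 7.17. The lung marker Scgb1a1 and the olfactory marker Omp had signals of at most 34.8 in either pool. The part of these cell types in the Cyp2 differences was not tested.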

How the data were processed

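The values used are linear intensities of 1-colour arrays as deposited, background-subtracted and detrended within the array per the file headers, with no scaling between arrays. Deposited flags of background, saturation and outliers are other values of 0 or 1. Agilent Feature Extraction is version 11.0.1.1 per the file headers and 9.1 per the submitters' processing notes. The deposited series matrix intensities equal the raw median signal in 100% of values. Per the labels' protocols RNA was made with a blood kit and globin removal, although the tissue is given as liver.

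Control spots (1377) and spots marked as outliers (206 on either array) were left out, log2 signals were averaged over the spots of a probe (39401 probes) and the array's 75th percentile was subtracted. A probe was named where its accession, without version, matched 1 gene of RefSeq GRCm38.p6 (27219 probes). The headers name build mm9, so no coordinates are given for probes. Of a gene's probes, the brightest above background on both arrays was used. The number of arrays limits the precision. All members may be named; of the other lists, all regulators and redox partners, and at most 3 genes of each remaining list; some listed genes are not reported here. The members and lists were chosen with earlier results of these data known. The alternatives were quantile and loess (span 0.3) normalization, the 75th percentile over probes above background, normexp (offset 50), the series matrix, the mean over probes, no background filter, and thresholds of 1.5-fold and 3-fold. For normexp, spots whose local background is marked as an outlier (193 in Ad-Ctrl, 354 in Ad-378) took the array's median background, a step set after the data were seen, since a single such spot upset the fit. The steps were tested on simulated data. Promoters were aligned with Biopython 1.88 in global mode, with no penalty for gaps at the ends. Python 3.11.15, numpy 2.4.6, pandas 2.3.3, statsmodels 0.14.6, R 4.3.3 and limma 3.58.1 were used.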

Additional observations from a re-analysis of the deposited data

Results flagged for a closer look

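The family leaves pseudogenes out, and the probes of 2 of them carried a higher signal in the Ad-378 pool than in the Ad-Ctrl pool, beyond the 95% range of the scanner error. Cyp2d37-ps, a transcribed pseudogene of the Cyp2d cluster, had 1411 in Ad-Ctrl and 2898 in Ad-378, a difference of 1.24, whereas the 8 Cyp2d genes lay between -0.27 and 0.16. Cyp2d13, also annotated as a transcribed pseudogene, had 635 and 835, a difference of 0.60. Over the settings Cyp2d37-ps ran from 1.09 to 1.24 and Cyp2d13 from 0.56 to 0.61. Each rests on 1 probe and 1 array per group.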

How the results depend on the processing

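No paired analysis was possible because there is 1 array for each virus, and leaving out a replicate was likewise not possible. The median of the Cyp2a genes was -0.29 after normexp and -0.40 on the series matrix values, because Cyp2a22, the dim middle member there, took those values. At a threshold of 1.5-fold 2 members were higher and 6 lower, and at 3-fold 0 were higher and 0 lower. The count at least 2-fold lower was 4 under quantile and loess normalization and with no background filter, and 2 after normexp and on the series matrix values. Of 280 values of single members under 7 settings, 276 moved by less than the 95% range of the scanner error, 4 by more (Cyp2a22 under 2 settings, Cyp2c66 under normexp and Cyp2c38 at -0.68 with the mean over probes), and 0 of those past 2-fold turned in sign. Of the 40 members, 27 kept 1 sign throughout, 13 above and 14 below 0. The background share past 2-fold was 7.45% under quantile and 7.5% under loess normalization, 10.8% with no background filter, 3.86% after normexp and 4.31% on the series matrix values. Signals near background limit Cyp2a22, Cyp2c66, Cyp2s1, Cyp2t4 and Cyp2w1.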
